A study of Mus with 7 samples.

Results

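The genes described here were 30 named genes of glucose breakdown and of the hypoxia response, found by symbol among the 31053 genes of the count files of mouse fetal liver-derived macrophages (FLMs). They comprised 18 genes of glycolysis, from glucose uptake to lactate export and the kinase that switches off pyruvate dehydrogenase, and 12 genes of the hypoxia response. All 30 symbols were present, and 29 had at least 1 UMI (a unique molecular identifier, which counts 1 captured RNA molecule) in the cells analysed. The exception was Egln3, with 0 UMIs in all 7 libraries.

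FLMs are self-renewing macrophages grown from the fetal livers of C57BL/6J mice, and all 7 cultures received 30 ng/mL GM-CSF. Con cells were in medium with 10% fetal bovine serum (FBS) and were collected before any treatment. The other 6 cultures spent 24 h in 0.25% FBS with 8.3 µM bovine serum albumin, either alone (Veh) or carrying 25 µM docosahexaenoic acid (DHA), an omega-3 fatty acid. They were then collected with no LPS (Veh.LPS.0 and DHA.LPS.0) or 1 h (Veh.LPS.1 and DHA.LPS.1) or 4 h (Veh.LPS.4 and DHA.LPS.4) after 20 ng/mL LPS, a bacterial lipid that activates macrophages through TLR4. Medium with DHA or albumin was taken off when LPS was added, so in the LPS libraries DHA was a pretreatment. The LPS libraries thus also differed from the 0 h libraries in this change of medium and in 1 or 4 h of further culture. These changes cannot be told apart from LPS. These are cells kept through many passages in culture, and a labelled condition is 1 culture and 1 library.

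Levels are CPM, the counts scaled to a library of 1000000 UMIs and summed over the kept cells of a library, and they count captured molecules with no correction for transcript length. With 1 library per condition no test was possible: the 95% intervals are exact Poisson (levels) or binomial (ratios and shares) intervals and cover counting error only. Kept cells numbered 993 to 3073 in Con and Veh and 692 to 795 in DHA, with library totals of 22045775 to 125716982 UMIs. The filter on mitochondrial UMIs removed 29.0% of barcodes in Con, 35.8% to 54.7% in Veh and 74.4% to 80.0% in DHA. Between 0 and 10 kept cells of a library had a barcode that also occurred in another library. All 9 macrophage markers were detected in every library, with a summed level of 5817 to 7089 CPM. The sums of the erythroid, lymphoid, stromal and dendritic marker lists did not exceed 1.88 CPM in any library, and mast cell markers had 0 UMIs. The neutrophil list summed to 0.0571 to 6.99 CPM with 1 or 2 of its 4 genes detected, highest in DHA.LPS.4, and the hepatocyte list to 5.48 to 7.66 CPM with 1 or 2 of 4. At this depth the interval reached at most 1.74% from the level for values above 500 CPM, 5.22% between 50 and 500 CPM and 10.6% between 10 and 50 CPM.

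Glycolysis converts glucose to pyruvate in the cytosol, and activated macrophages are known to rely on it. When oxygen is scarce, the transcription factor HIF-1 accumulates because the prolyl hydroxylases that mark its alpha subunit for destruction no longer act on it. HIF-1 is also known to accumulate when macrophages respond to LPS. It then raises transcription of glucose transporters, glycolytic enzymes and genes such as Bnip3, Ndrg1 and Vegfa. HIF-1 activity is set mainly through the stability of the protein, which counts of RNA do not measure.

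Several hypoxia response genes were higher after 24 h of reduced serum, and higher again with DHA than with Veh at the same hour. Veh.LPS.0 over Con, called serum reduction here, also differed in the added albumin and in 24 h of further culture. These changes cannot be told apart. The sum of the 12 hypoxia members was 577 CPM (Con), 846, 841 and 791 CPM (Veh) and 1091, 1147 and 989 CPM (DHA). Here and below, 3 values for Veh or DHA stand in the order 0, 1 and 4 h of LPS. Each DHA library lay above its Veh library, with ratios of 1.29 (95% interval 1.27 to 1.31) at 0 h, 1.36 (1.35 to 1.38) at 1 h and 1.25 (1.23 to 1.27) at 4 h. The 18 glycolysis members took 1.21% of all UMIs (Con), 1.31%, 1.26% and 1.10% (Veh) and 1.41%, 1.29% and 1.24% (DHA). Their DHA to Veh ratios were 1.07, 1.02 and 1.13, so the glycolysis sum moved less than the hypoxia sum at each hour.

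A member was called higher or lower where it passed 1.5-fold, a limit of size and not a test. A gene was compared where 25% or more of the cells in 1 of the 2 libraries had a UMI of it. After serum reduction 8 of 27 members were higher (Bnip3, Bnip3l, Ndrg1, Ero1l, Vegfa, Ankrd37, Pgk1 and Pfkfb4) and 0 lower, where 9.31% of all 8252 genes were higher and 7.76% lower. With DHA, 3 of 27 were higher at 0 h (Ndrg1, Ero1l and Ankrd37) against 1.08% of all genes. At 1 h, 4 of 26 were higher (Bnip3, Ndrg1, Ero1l and Ankrd37) against 1.33% of all genes. At 4 h, 4 of 27 were higher (Bnip3, Ankrd37, Egln1 and Hk1) against 2.22%. On the lower side the DHA counts were 0, 0 and 1 (Pfkfb4 at 4 h), against 0.949%, 1.73% and 2.42% of all genes. None of the 10 hypoxia members compared was lower with DHA past this limit at any hour. At such low shares of all genes, that count says little about 10 genes. Ankrd37 was the only member past 1.5-fold at all 3 hours. At 2-fold the counts of higher members were 0, 1 (Ndrg1) and 0, against 23 of 8434, 24 of 7794 and 14 of 7672 genes.

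With LPS some members were higher and others lower, as was also true of all genes. After 1 h, 2 of 27 members were higher in Veh (Slc2a1 and Vegfa) and 1 lower (Pfkfb4), with 4.15% and 4.24% of all genes. The same 3 genes were past the limit in DHA, with 4.66% of all genes higher and 4.97% lower. After 4 h in Veh, 4 members were higher (Slc2a1, Hk2, Ndrg1 and Vegfa) and 6 lower (Hk1, Pfkfb4, Pdk1, Egln1, Bnip3 and Bnip3l), while 10.2% of all genes were higher and 38.3% lower. After 4 h in DHA, 3 members were higher (Slc2a1, Hk2 and Vegfa) and 6 lower (Hk1, Pfkfb4, Pdk1, Egln1, Bnip3 and Ankrd37), with 9.64% and 33.6% of all genes. The lower counts of 6 of 27 were thus a smaller share than in all genes. The higher members were 14.8% of 27 in Veh and 11.1% of 27 in DHA, slightly above the shares of all genes. The comparisons of LPS and of DHA share the 0 h libraries, so their counts are not independent of each other.

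Among the oxygen-sensing genes, Hif1a differed least between libraries and Egln1 was lowest after 4 h of LPS. Hif1a, which encodes the oxygen-regulated subunit of HIF-1, measured 62.4 CPM (Con), 75.5, 68.3 and 63.8 CPM (Veh) and 61.1, 63.4 and 67.2 CPM (DHA). Its range over the 7 libraries was 1.24-fold, the smallest of the detected hypoxia members. At 0 h, where Ndrg1 and Ero1l were past 1.5-fold with DHA, Hif1a was lower with DHA by a log2 ratio of -0.31 (95% interval -0.38 to -0.24). Egln1, the main hydroxylase that marks HIF-1 alpha for destruction and itself a known HIF target, measured 30.9 CPM (Con), 30.4, 27.1 and 14.4 CPM (Veh) and 37.6, 33.4 and 22.6 CPM (DHA). Egln1 was higher in DHA at each hour, 1.24-fold at 0 h, 1.23-fold at 1 h and 1.57-fold (1.40 to 1.76) at 4 h. Egln3, a hydroxylase that is strongly hypoxia-induced in many cells, was at 0 UMIs, and 3 UMIs of the library total put its limit at 0.0239 CPM in Con and 0.136 CPM in DHA.LPS.4.

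Bnip3 and Bnip3l encode related mitochondrial outer membrane proteins that recruit the autophagy machinery to mitochondria. Bnip3 (chr7:138890836-138909506, mm10 coordinates as in RefSeq) measured 42.6 CPM (Con), 99.1, 89.3 and 44.7 CPM (Veh) and 139, 137 and 82.6 CPM (DHA). Serum reduction was accompanied by 2.33-fold more Bnip3 (2.25 to 2.41), and by library totals its level in Veh.LPS.4 was near that of Con. The scaling factors of edgeR's TMM method (trimmed mean of M values) were 1.07 for Con and 0.819 for Veh.LPS.4. With them Bnip3 in Veh.LPS.4 lay above Con. Its DHA to Veh ratio was 1.40 at 0 h, 1.54 at 1 h and 1.85 (1.74 to 1.96) at 4 h. Bnip3l (chr14:66985238-67008877) measured 64.5 CPM (Con), 114, 109 and 69.3 CPM (Veh) and 141, 133 and 102 CPM (DHA). Both genes were lowest at 4 h within each treatment, and DHA was above Veh at each hour. By library totals 0 h lay above 1 h. The 1 h LPS log2 ratio was -0.15 (Veh) and -0.01 (DHA) for Bnip3, and -0.07 and -0.08 for Bnip3l. TMM scaling moved all genes by 0.09 (Veh) and 0.11 (DHA) in these comparisons. The order of 0 h and 1 h therefore depends on the scaling, except for Bnip3 in Veh. For Bnip3l the DHA ratios were 1.23, 1.22 and 1.46, all under the limit of 1.5. With all deposited barcodes the DHA log2 ratio of Bnip3 was 0.17 in place of 0.62 at 1 h and 0.37 in place of 0.89 at 4 h. The median of all genes moved as well, to -0.31 in place of -0.05 at 1 h and -0.18 in place of 0.08 at 4 h.

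Ndrg1, a stress-responsive gene known as a strong hypoxia target, had the widest range of the members above 10 CPM, 7.01-fold. Ndrg1 (chr15:66929318-66969641) measured 26.8 CPM (Con), 75.8, 74.4 and 138 CPM (Veh) and 130, 152 and 188 CPM (DHA). Ndrg1 was thus lowest in Con and highest in DHA.LPS.4, and the 3 DHA libraries all lay above Veh.LPS.0 and Veh.LPS.1. Its ratio was 2.83 (2.71 to 2.95) after serum reduction and 1.71, 2.04 (1.97 to 2.12) and 1.37 with DHA. The 1 h ratio was past 99.7% of all genes compared. Among cells with few proliferation transcripts the 4 h LPS log2 ratio of Ndrg1 in Veh was 0.41 in place of 0.86 and no longer past 1.5-fold. With all deposited barcodes the 0 h DHA log2 ratio was 0.40 in place of 0.78, while the median of all genes was -0.25 in place of -0.05.

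Ero1l, which encodes the oxidase that passes electrons from newly folded proteins to oxygen in the endoplasmic reticulum, had the highest level of the hypoxia members in DHA.LPS.1. Ero1l (chr14:45283087-45318572) measured 77.3 CPM (Con), 149, 160 and 182 CPM (Veh) and 233, 259 and 214 CPM (DHA). Every reduced-serum library held at least 1.93-fold the level of Con, and each DHA library exceeded its Veh library. The DHA ratio was 1.56 (1.52 to 1.60) at 0 h and 1.62 (1.58 to 1.66) at 1 h, but 1.18 (1.14 to 1.22) at 4 h. The 4 h response to LPS was 1.22-fold in Veh and 0.918-fold in DHA, a difference of log2 responses of -0.41 (-0.47 to -0.34). That interval covers counting error alone, and the difference has no replicate behind it. With TMM scaling both responses were above 0, at log2 0.71 and 0.18, so the direction in DHA depends on the scaling.

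Ankrd37, a small ankyrin-repeat protein gene known as a direct HIF target, was the rarest of the members higher past the limit with DHA. Ankrd37 (chr8:45996908-46000414) measured 7.10 CPM (Con), 14.7, 12.4 and 10.4 CPM (Veh) and 26.4, 20.7 and 17.2 CPM (DHA). The 3 DHA libraries were the 3 highest of the 7. The DHA ratio was 1.79 (1.65 to 1.95), 1.68 (1.52 to 1.85) and 1.65 (1.45 to 1.88), with intervals that overlap over the 3 hours. After thinning each cell to 20000 UMIs, Ankrd37 was found in 21.4% of Veh.LPS.0 cells and 36.1% of DHA.LPS.0 cells. The files hold 1 cell type, so a share set by free RNA in the droplets was not available for comparison.

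**Figure D1:**
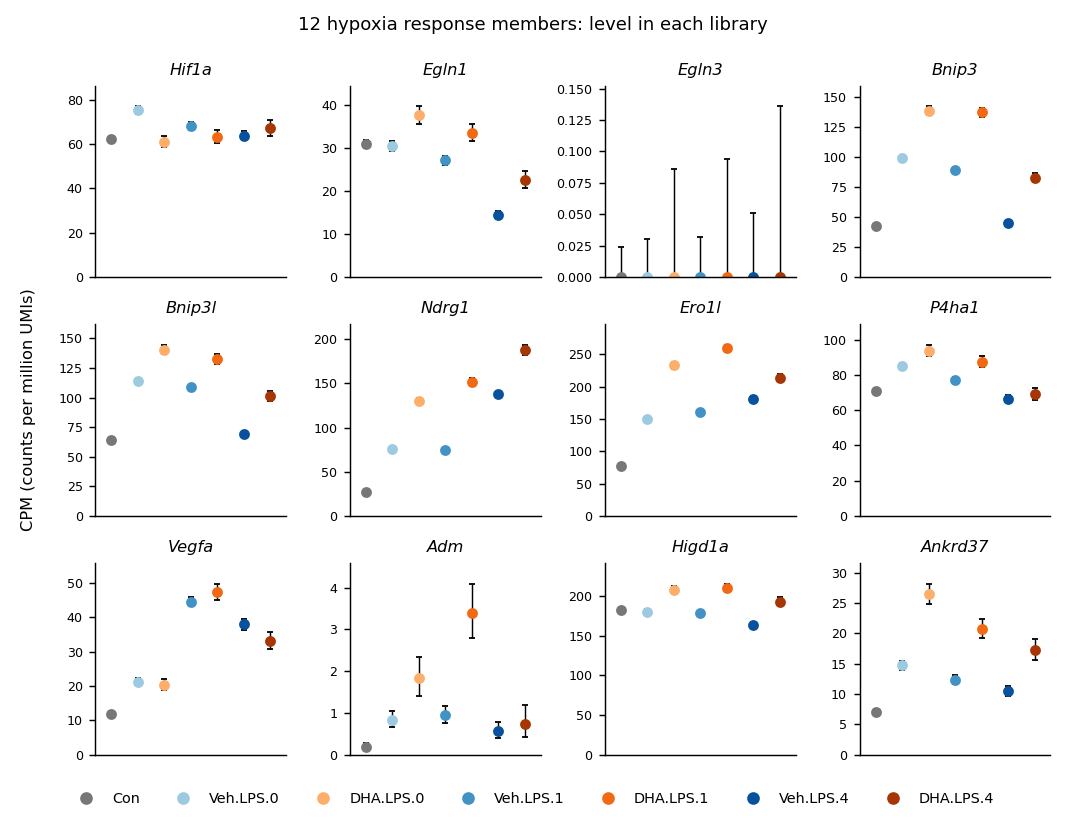
Level in CPM (vertical axis, from 0) of the 12 hypoxia response members in each of the 7 libraries, with points coloured by library and bars for the 95% Poisson interval of the counts. Bnip3, Bnip3l, Ndrg1, Ero1l and Ankrd37 sit lowest in Con and higher in DHA than in Veh at each hour, Vegfa is high in all 4 libraries with LPS, and Egln3 is at 0 with the limit set by 3 UMIs.

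Of the secreted members, Vegfa did not share that pattern and the rare Adm did, with a wide interval at 4 h. Vegfa, the blood vessel growth factor, measured 11.7 CPM (Con), 21.3, 44.5 and 37.9 CPM (Veh) and 20.4, 47.3 and 33.1 CPM (DHA). Vegfa (chr17:46016993-46032377) thus followed serum reduction and LPS, with 1 h ratios of 2.10 (1.99 to 2.21) in Veh and 2.32 (2.12 to 2.54) in DHA, and DHA to Veh ratios of 0.957, 1.06 and 0.872. Adm, which encodes the peptide hormone adrenomedullin, was at 0.183 CPM in Con and between 0.563 and 3.39 CPM elsewhere, with 3.39 CPM in DHA.LPS.1 against 0.952 CPM in Veh.LPS.1. The DHA to Veh ratio of Adm was 2.17 (1.54 to 3.05) at 0 h and 3.57 (2.67 to 4.77) at 1 h, and 1.29 (0.662 to 2.41) at 4 h, an interval that spans 1. Its transcripts were in 2.72% of DHA.LPS.0 and 3.40% of DHA.LPS.1 cells after thinning, under the share needed to be counted. P4ha1, the catalytic subunit of a collagen prolyl hydroxylase, ranged from 66.6 CPM (Veh.LPS.4) to 93.9 CPM (DHA.LPS.0). Higd1a, a mitochondrial inner membrane protein, ranged from 164 CPM (Veh.LPS.4) to 210 CPM (DHA.LPS.1). Both stayed within 1.5-fold over the 7 libraries.

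Glucose uptake and the step that traps glucose in the cell included the glycolysis members that were higher past 1.5-fold with LPS, Slc2a1 and Hk2. Slc2a1 encodes the glucose transporter GLUT1. Slc2a1 (chr4:119108745-119137330) measured 63.4 CPM (Con), 67.9, 104 and 169 CPM (Veh) and 89.9, 137 and 206 CPM (DHA). Its level was higher at each later hour of LPS in both treatments, and DHA was above Veh at each hour by 1.32-fold, 1.33-fold and 1.22-fold. The 4 h LPS ratio was 2.49 (2.41 to 2.57) in Veh and 2.29 (2.19 to 2.40) in DHA. Serum reduction moved Slc2a1 by 1.07-fold only, unlike the 6 hypoxia members past 1.5-fold in that comparison (Bnip3, Bnip3l, Ndrg1, Ero1l, Vegfa and Ankrd37). Among low-proliferation cells, the 1 h LPS ratio was below 1.5-fold in both treatments (log2 0.56 in Veh and 0.53 in DHA).

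Of the hexokinases, which phosphorylate glucose, Hk1 and Hk2 went in opposite directions after 4 h of LPS. Hk2, the inducible form, measured 51.4 CPM (Con), 39.8, 37.0 and 64.5 CPM (Veh) and 32.6, 32.0 and 80.8 CPM (DHA). Hk1, the form found in most tissues, measured 50.5 CPM (Con), 62.3, 56.2 and 25.6 CPM (Veh) and 66.1, 61.2 and 39.6 CPM (DHA). At 4 h of LPS the Hk2 ratio was 1.62 (1.55 to 1.69) in Veh and 2.48 (2.30 to 2.67) in DHA, while that of Hk1 was 0.411 (0.389 to 0.435) and 0.600 (0.554 to 0.649). The opposite directions of these genes were kept under TMM scaling, with log2 ratios in Veh of 1.13 for Hk2 and -0.85 for Hk1. The share of Hk2 among the UMIs of Hk1, Hk2 and Hk3 was 26.0% in Veh.LPS.0 and 49.4% in Veh.LPS.4, and 20.1% in DHA.LPS.0 and 47.9% in DHA.LPS.4. Hk3, a form typical of myeloid cells, took 16.3% in Con and 28.6% to 39.2% in the other libraries. Before LPS, DHA cells therefore held a smaller Hk2 share than Veh cells, and at 4 h the intervals of the shares overlapped (48.3% to 50.6% in Veh and 46.3% to 49.5% in DHA).

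The enzymes from glucose phosphate to pyruvate included the most abundant members, Gapdh and Pkm. Gapdh ranged from 2511 CPM (Con) to 3229 CPM (Veh.LPS.1) and Pkm, the pyruvate kinase, from 2672 CPM (Veh.LPS.4) to 3465 CPM (Con). Eno1 (enolase), with 693 to 879 CPM, stayed within 1.27-fold. Aldoa (aldolase A) measured 878 CPM (Con), 1200, 1106 and 893 CPM (Veh) and 1423, 1220 and 1089 CPM (DHA). Gpi1 and Tpi1, the glucose phosphate and triose phosphate isomerases, had their highest levels in DHA.LPS.0 (639 and 733 CPM) and their lowest in Veh.LPS.4 (410 and 464 CPM). Pgk1, the first enzyme of the pathway to yield ATP, went from 712 CPM (Con) to 1103 CPM (Veh.LPS.0), 1.55-fold (1.53 to 1.56). Pgk1 was the only one of these enzymes past 1.5-fold in any of the 8 comparisons. Pgam1, the mutase, went the other way with serum reduction, from 827 to 676 CPM, and was 1.21-fold, 1.21-fold and 1.28-fold higher with DHA at 0, 1 and 4 h. The phosphofructokinases differed as well: Pfkp was at 125 CPM in Con and 159 to 217 CPM elsewhere, while Pfkl stayed between 63.0 and 83.5 CPM. Pfkp held 62.4% of the phosphofructokinase UMIs in Con and 65.1% to 72.5% in the other libraries.

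The bifunctional enzymes that set the level of fructose 2,6-bisphosphate, the activator of phosphofructokinase, were rare. Pfkfb3 did not reach the share of cells needed in any comparison, with 2.70 to 5.23 CPM. Pfkfb4 measured 5.11 CPM (Con), 8.84, 5.41 and 5.73 CPM (Veh) and 7.62, 4.81 and 3.54 CPM (DHA). Its highest level was in Veh.LPS.0 and its lowest in DHA.LPS.4. The DHA to Veh ratio at 4 h was 0.617 (0.476 to 0.792), and its log2 value was -0.58 with a mitochondrial limit of 10% and -0.48 with all barcodes, both short of 1.5-fold. The LPS ratio at 1 h was 0.612 (0.547 to 0.683) in Veh and 0.631 (0.514 to 0.772) in DHA.

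Downstream of pyruvate, Ldha (lactate dehydrogenase A) measured 1331 CPM (Con), 1130, 1079 and 932 CPM (Veh) and 1232, 1117 and 1150 CPM (DHA). Slc16a3, the lactate exporter MCT4, measured 109 CPM (Con), 136, 138 and 125 CPM (Veh) and 140, 137 and 164 CPM (DHA). For both genes DHA and Veh lay within 1.09-fold of each other at 0 and 1 h, and DHA was 1.23-fold (Ldha) and 1.32-fold (Slc16a3) higher at 4 h. Pdk1, the kinase that switches off pyruvate dehydrogenase, measured 32.5 CPM (Con), 41.3, 29.9 and 13.3 CPM (Veh) and 40.2, 34.2 and 17.4 CPM (DHA). Pdk1 had the lowest 4 h LPS ratio of the members compared, 0.323 (0.298 to 0.348) in Veh and 0.433 (0.386 to 0.485) in DHA. Only 8.32% of all genes compared had a lower ratio in Veh.

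**Figure D2:**
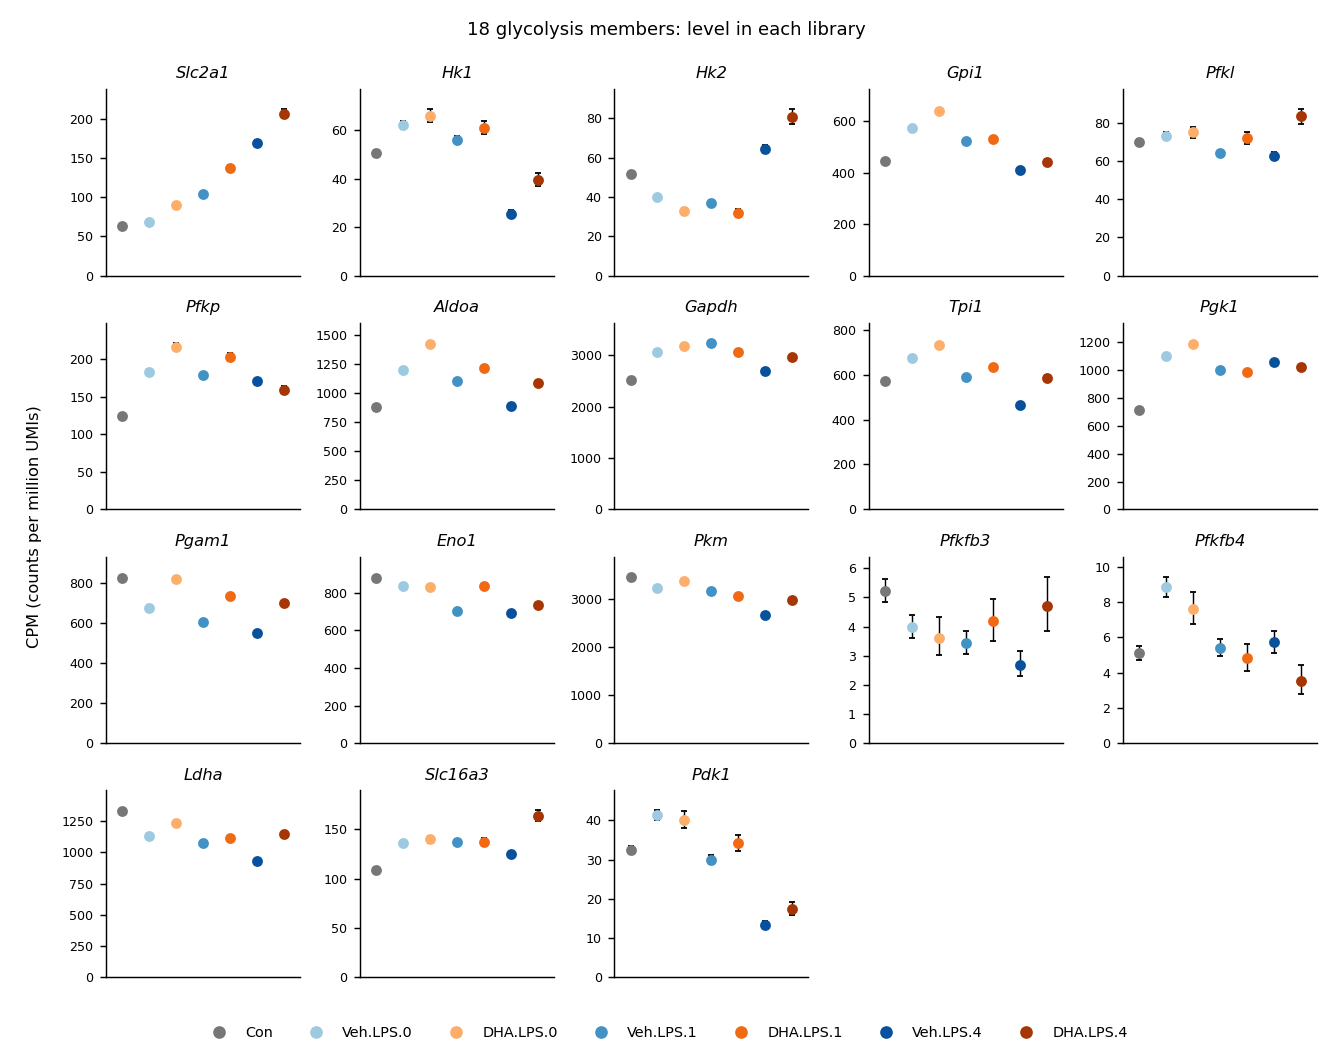
Level in CPM (vertical axis, from 0) of the 18 glycolysis members in each of the 7 libraries, with points coloured by library and bars for the 95% Poisson interval of the counts. Slc2a1 climbs from 63.4 CPM in Con to 206 CPM in DHA.LPS.4, Hk1 and Pdk1 are lowest in Veh.LPS.4, and the abundant enzymes Gapdh, Pkm and Eno1 differ by at most 1.30-fold between any pair of libraries.

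Side by side, the DHA comparisons placed most members above the median gene. The median log2 ratio of the 10 hypoxia members compared was 0.30 at 0 h, 0.30 at 1 h and 0.34 at 4 h, where the median of all genes was -0.05, -0.05 and 0.08. For the glycolysis members the medians were 0.08, 0.11 and 0.29. Above the all-gene median lay 23 of 27, 22 of 26 and 21 of 27 members at the 3 hours. At 4 h the TMM scaling moved all genes by -0.12 on the log2 scale, and the medians were then 0.22 (hypoxia) and 0.17 (glycolysis) against -0.05 for all genes. Under TMM scaling the split of all genes past 1.5-fold at 4 h went from 47.8% to 26.8% higher, and 2 members (Bnip3 and Ankrd37) were higher in place of 4. Of all genes, 96 of 7672 were then higher. In 8 of the 10 hypoxia members DHA was above Veh at all 3 hours, and in 7 after TMM scaling, where P4ha1 at 4 h fell below 0. The share of all genes above Veh at all 3 hours was not computed, so these counts have no background. The members were also chosen with earlier results of these data known.

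The DHA cells also held fewer proliferation transcripts at 0 and 1 h and came from libraries in which more barcodes were removed. The 8 proliferation genes summed to 2035, 1992 and 506 CPM in Veh and 1490, 1331 and 756 CPM in DHA. In cells with at most 5 such UMIs per 20000, the DHA log2 ratio of Ero1l was 0.99 at 0 h and 0.93 at 1 h, that of Bnip3 0.94 at 1 h and 1.07 at 4 h, that of Ndrg1 0.71 at 0 h and 1.00 at 1 h, and that of Ankrd37 0.68, 0.89 and 0.93. The hypoxia medians in them were 0.45, 0.43 and 0.43, so the direction was kept and no member named here lost its place past 1.5-fold except Egln1 at 4 h (0.56). With all deposited barcodes, the hypoxia medians were 0.12, 0.17 and 0.11, and the glycolysis medians turned to -0.14, -0.15 and -0.07. The median of all genes was then -0.25, -0.31 and -0.18, so both lists still lay above it.

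**Figure D3:**
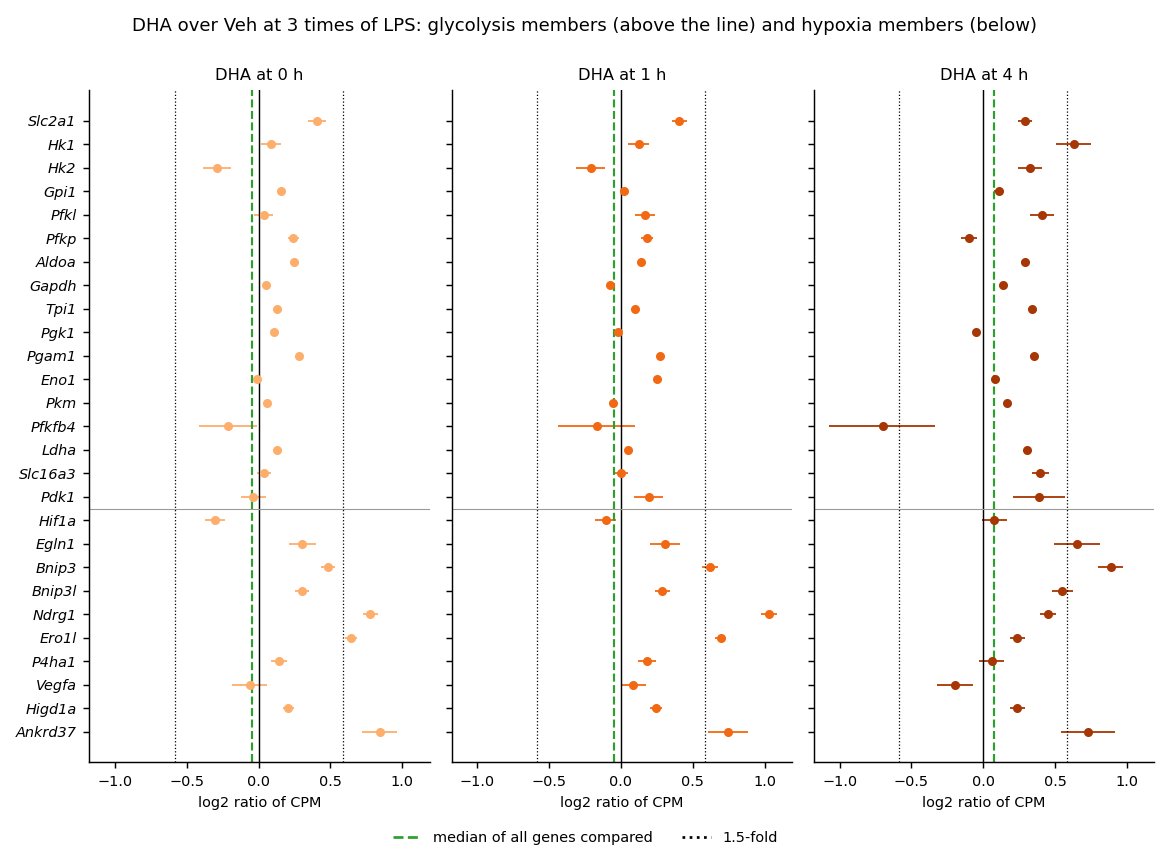
Log2 ratio of CPM, DHA over Veh (horizontal axis), of the 27 members compared in at least 1 hour, at 0, 1 and 4 h of LPS from left to right. Bars are 95% binomial counting intervals, the dashed line is the median of all genes and dotted lines mark 1.5-fold; Ndrg1, Ero1l, Bnip3 and Ankrd37 stand farthest to the right at 0 and 1 h and Bnip3, Ankrd37, Egln1 and Hk1 at 4 h, Hif1a is left of 0 at 0 and 1 h, and Hk2 moves from the left of 0 to the right at 4 h.

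For LPS at 4 h the reference for a change matters, because the TMM scaling moved all genes by 0.43 (Veh) and 0.30 (DHA) on the log2 scale. The split of all genes past 1.5-fold went with it from 21.1% to 50.6% higher in Veh and from 22.3% to 46.6% in DHA. After 1 h the shift was 0.09 in Veh and 0.11 in DHA, and the split went from 49.5% to 61.3% and from 48.4% to 64.0%. The 10 enzymes from Gpi1 to Pkm had a median log2 ratio of -0.27 at 4 h in Veh by library totals and 0.16 after TMM scaling, so their direction flips with the scaling. The all-gene median was -0.36, and 7 of these 10 lay above it. Slc2a1, Hk2, Vegfa and Ndrg1 were above 0 on both scales (TMM log2 1.75, 1.13, 1.26 and 1.29 in Veh), and Hk1, Pdk1, Egln1 and Bnip3 below 0 on both (-0.85, -1.20, -0.65 and -0.72). In DHA the number of lower members at 4 h was 6 by library totals and 2 (Pfkfb4 and Pdk1) after TMM scaling. Of all 8477 genes, 2849 and 1779 were lower.

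**Figure D4:**
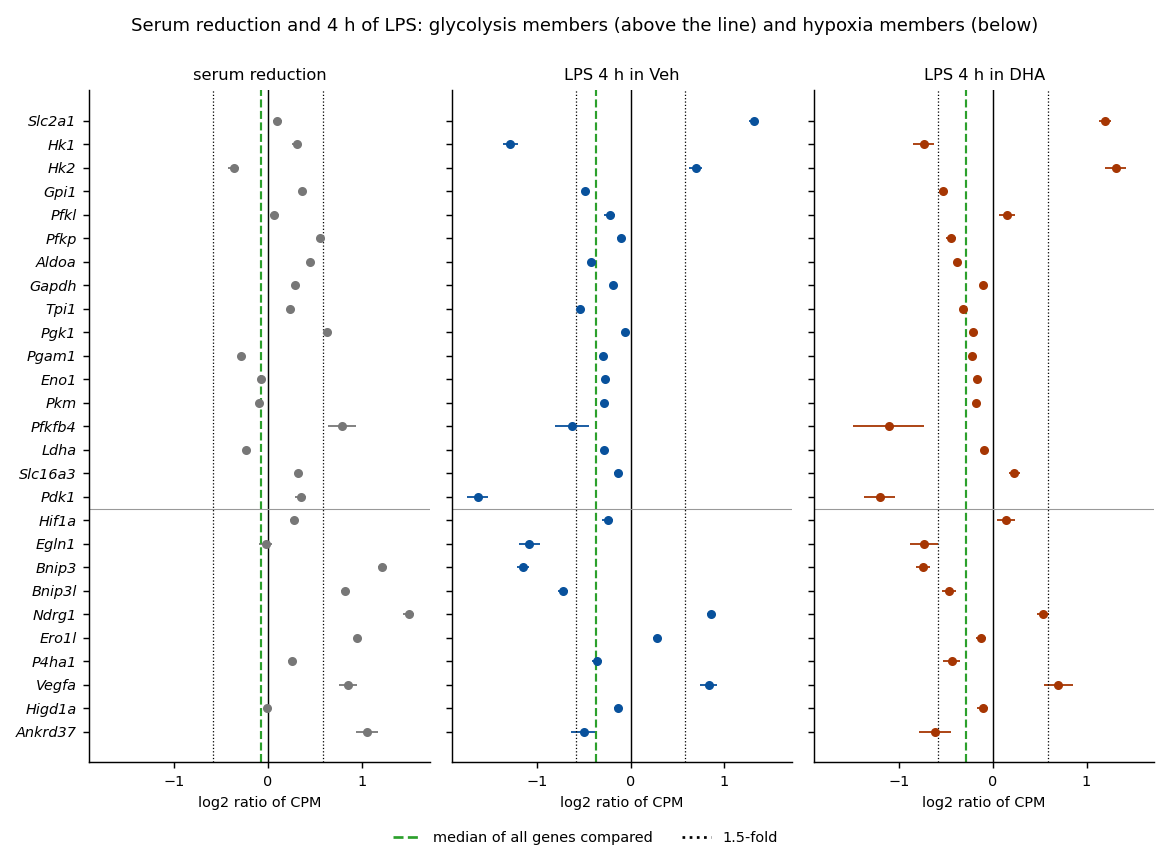
Log2 ratio of CPM (horizontal axis) of 27 members for serum reduction (Veh.LPS.0 over Con) and for 4 h of LPS in Veh and in DHA, with 95% binomial counting intervals, the median of all genes (dashed) and 1.5-fold (dotted). Ndrg1, Bnip3 and Ankrd37 lie past 2-fold to the right after serum reduction, and with LPS Slc2a1 and Hk2 lie to the right while Pdk1 and Hk1 lie to the left in both treatments.

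In single cells the hypoxia sum was spread out more in reduced serum than in Con. After thinning each cell to 20000 UMIs the 12 hypoxia members gave a median of 11 UMIs per cell (Con), 15, 16 and 15 (Veh) and 20, 20 and 18 (DHA). The 95th percentile was 18 (Con) and 29, 29 and 28 (Veh), against 41, 43.3 and 36 (DHA). At each hour the median and the 95th percentile were thus higher with DHA than with Veh. The variance of the sum over its mean, which counting alone would hold near 1, was 1.35 in Con, 2.68 to 3.75 in Veh and 3.80 to 5.85 in DHA. At 4 h it was 3.75 in Veh and 3.80 in DHA. This value also rises with the mean when the relative spread stays the same. The means were 16.7, 16.7 and 15.8 UMIs in Veh and 21.9, 22.6 and 19.7 in DHA. At 1 h the value was 2.68 in Veh and 5.85 in DHA, more than the higher mean alone would give. At 0 h it was 3.18 and 4.37, slightly more, and at 4 h the DHA value was less than that. A wider relative spread with DHA was thus not seen at every hour, and the difference was not tested. Ero1l reached the highest value of the members that averaged at least 1 UMI per cell, 6.70 in DHA.LPS.1, and Ndrg1 had 6.21 in DHA.LPS.4, beside 6.22 for the far more abundant Gapdh in DHA.LPS.0. In Veh.LPS.4, Ndrg1 was found in 72.2% of cells where even spreading of its UMIs over cells would give 93.8%.

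The glycolysis sum per cell had medians of 241 UMIs (Con), 261, 253 and 220 (Veh) and 282, 261 and 247.5 (DHA). Pairs of members were compared where both averaged at least 1 UMI per cell in all 7 libraries. The highest correlations over cells were between abundant glycolysis members. Pkm and Ldha had a Pearson correlation of 0.47 as the median of the 7 libraries, with a range of 0.31 to 0.54 over 692 to 3073 cells each. Tpi1 and Ldha also had 0.47. For Ero1l with Slc2a1 the median was 0.16 and for Ero1l with Bnip3l 0.14. Other hypoxia pairs reached that mean in fewer libraries: Bnip3 with Ero1l had 0.21 to 0.35 in 5 and Ndrg1 with Ero1l 0.11 to 0.40 in 6. In counts this sparse such values are descriptions only, and the cells of a library share its preparation. Counting noise lowers the correlation of rare genes. In Veh.LPS.0, Pkm and Ldha averaged 64.5 and 22.8 UMIs per cell, against 2.89 for Ero1l and 1.34 for Slc2a1. Whether glycolysis members vary together more closely than hypoxia members can therefore not be read from these values. Across cells the sum of hypoxia members and the sum of proliferation genes had correlations between -0.04 and 0.17 in the 7 libraries. For Ndrg1 the correlation with the proliferation sum was below 0 in all 7 libraries, from -0.25 (DHA.LPS.0) to -0.07 (Veh.LPS.4), and for Bnip3 it was above 0 in all 7, from 0.06 (DHA.LPS.4) to 0.27 (Veh.LPS.1).

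**Figure D5:**
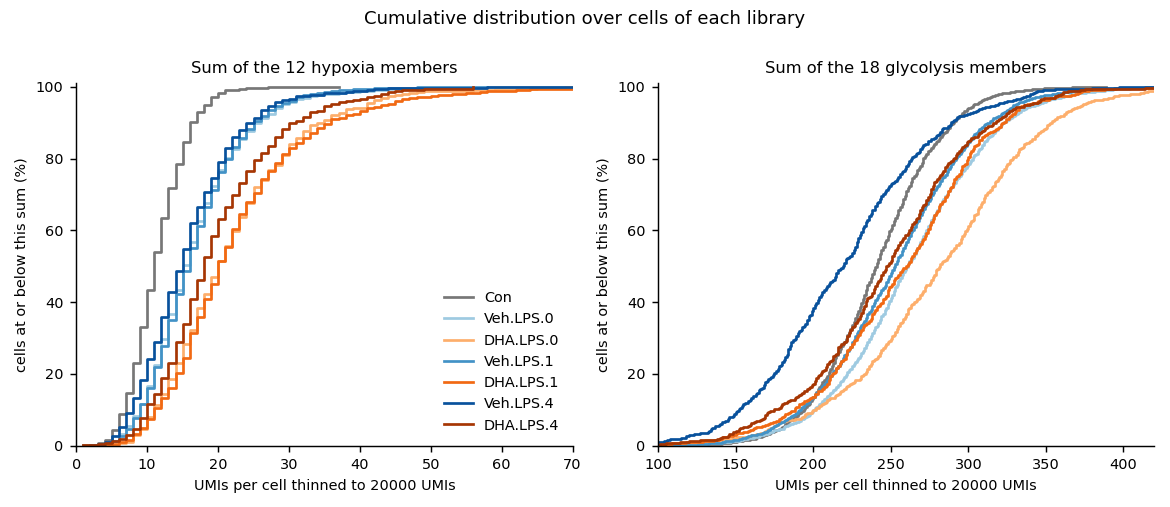
Cumulative share of cells (vertical axis, %) at or below a given sum of UMIs (horizontal axis) of the 12 hypoxia members (left) and the 18 glycolysis members (right), with each cell thinned to 20000 UMIs and a line for each library. In the left panel the Con line rises first with a median of 11 UMIs and the 3 DHA lines rise last with medians of 18 to 20, while in the right panel Veh.LPS.4 is leftmost (median 220) and DHA.LPS.0 rightmost (median 282).

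Beyond the 30 members, 63 further genes of the same pathways were examined: other glycolytic genes, the pentose phosphate pathway, pyruvate entry to mitochondria, the HIF system and other known hypoxia-induced genes. With DHA, 4 of 45 compared were higher before LPS, then 2 of 39 after 1 h and 5 of 37 after 4 h, against 1.08%, 1.33% and 2.22% of all genes. At each hour 0 were lower, against 0.949%, 1.73% and 2.42% of all genes. Hilpda, a hypoxia-inducible inhibitor of the lipase of lipid droplets, stood highest of them at each hour. Hilpda measured 16.3 CPM (Con), 13.0, 53.9 and 80.2 CPM (Veh) and 30.4, 203 and 236 CPM (DHA). Its DHA log2 ratio was 1.23, 1.91 and 1.55, and unlike Bnip3 or Ankrd37 it was not higher after serum reduction. Eno2, the neuronal type of enolase, was at 11.4 CPM in DHA.LPS.0 against 5.63 CPM in Veh.LPS.0. Of the 24 other hypoxia-induced genes, 16, 13 and 13 were compared at the 3 hours. Their median log2 ratio with DHA was 0.19, 0.29 and 0.46. Of the 6 other HIF system genes, 4, 3 and 4 were compared, with medians of -0.07, -0.02 and 0.05.

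After serum reduction 7 of 42 further genes were higher and 5 lower, where 9.31% of all genes were higher and 7.76% lower. Aldoc, a second aldolase and a known HIF target, went from 31.4 to 129 CPM, and Ccng2, a cyclin linked to growth arrest, from 3.29 to 12.2 CPM. Hk3 went from 19.8 to 51.2 CPM and Selenbp1, a selenium-binding protein gene, from 5.29 to 13.0 CPM. Of the 7 pentose phosphate genes, 3 were lower and 0 higher, beside the same shares of all genes. With DHA the Aldoc share of the aldolase UMIs was smaller, 9.72% in Veh.LPS.0 against 7.65% in DHA.LPS.0 and 9.15% in Veh.LPS.4 against 5.81% in DHA.LPS.4. After 4 h of LPS 6 of 43 were higher and 20 lower in Veh, and 4 of 45 higher and 21 lower in DHA. Of all genes 10.2% were higher and 38.3% lower in Veh, and 9.64% and 33.6% in DHA. The lower share of the further genes was larger, 46.5% in Veh and 46.7% in DHA. Of the other glycolysis enzymes and transporters, 6 of 10 were lower in Veh and 8 of 12 in DHA, with 1 higher in each. Of the other HIF system genes 0 of 4 were lower and 1 higher in each treatment. Of the other hypoxia-induced genes, 7 of 16 were lower in Veh and 6 of 16 in DHA. The glucose transporter gene Slc2a3 was at 2.20 CPM in Veh.LPS.4 against 8.54 CPM in Veh.LPS.0, and Mxi1, an antagonist of MYC, at 15.1 against 54.6 CPM. Near-identical copies carried few UMIs: Eno1b was at 5.24 to 8.72 CPM beside Eno1, and a second identifier with the symbol Aldoa had 0 to 3 UMIs per library.

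The barcodes removed for a high mitochondrial share had a different makeup of members and of all genes, compared on UMIs of nuclear genes. In Con, 4 of 18 glycolysis members were higher in them past 1.5-fold and 6 lower. Of 10 hypoxia members 3 were higher and 3 lower, and of 7975 genes 2068 and 1934. In DHA.LPS.4 these counts were 4 and 6 of 18, 4 and 3 of 11, and 1124 and 1790 of 6620. Slc2a1 was higher in the removed barcodes than in kept cells in all 7 libraries, by a log2 ratio of 1.34 to 1.98. So were Slc16a3 (1.33 to 1.89), Hk2 (1.15 to 1.86), Ero1l (1.04 to 1.73) and P4ha1 (1.07 to 2.03). Gapdh was lower in the removed barcodes by -1.79 to -1.35, Bnip3 by -1.80 to -0.96 and Bnip3l by -1.20 to -0.72. The Ndrg1 log2 ratios ran from -0.79 to -0.06, and that of -0.06, in Veh.LPS.4, had an interval that spans 0 (-0.14 to 0.02). Within kept cells the median mitochondrial share was 6.61% to 7.53%, and a limit of 10% left the hypoxia medians with DHA at 0.31, 0.31 and 0.38. The part of the removed barcodes in the DHA ratios was not tested beyond these values.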

How the data were processed

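Each of the 7 libraries was 1 culture of FLMs, prepared with a 10x Genomics kit that captures the 3' end of RNA. The authors deposited for each library a matrix of raw counts, with genes in rows, called cell barcodes in columns and UMIs as values, not normalized. The submitters' processing notes and the headers of the deposited files name Cell Ranger 3.1.0, and the notes name build mm10. Cells kept had more than 20000 UMIs, at least 2000 genes and under 20% mitochondrial UMIs, the limits in the study's methods. Doublets were not removed.

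Counts were summed over kept cells and divided by the library total (CPM). Each library is a group of 1, so 8 comparisons of libraries were made with no test, as ratios with exact binomial 95% intervals that cover counting error only. A gene was compared where at least 25% of cells of either library had a UMI, and counted past 1.5-fold. Logarithms set counts under 3 to 3. All 30 members were described; of 63 further pathway genes at most 4 per comparison were named, those with the largest log2 ratio past 1.5-fold. The members and lists were chosen with earlier results of these data known. Gene positions came from a RefSeq table of GRCm38.p6, the assembly of mm10, where 29 members matched by symbol and Ero1l by the symbol Ero1a. For shares and sums per cell, UMIs of each cell were drawn at random down to 20000.

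Scripts used Python 3.11.15, NumPy 2.4.6, SciPy 1.17.1, pandas 2.3.3 and, for TMM factors, edgeR 4.0.16 in R 4.3.3, and were tested on simulated data. The alternatives were TMM scaling, a 2-fold limit, other filters on barcodes (10000 UMIs, 10% mitochondrial, all barcodes, few proliferation transcripts, no shared barcodes), other filters on low genes and the mean over cells. Centring on the median gene was added after seeing the data.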

Additional observations from a re-analysis of the deposited data

Results flagged for a closer look

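For 2 members the DHA to Veh ratio had opposite signs at different hours of LPS, with log2 ratios of at least 0.1 in size at both hours, counting intervals away from 0 and the same signs after TMM scaling and after centring on the median gene. With 1 library per condition the difference between hours was not tested. For Hk2 the log2 ratio was -0.29 at 0 h and -0.21 at 1 h, and 0.33 at 4 h. For Pfkp it was 0.24 at 0 h and 0.18 at 1 h, and -0.10 at 4 h. With no limit on size, the other conditions were also met between some pair of hours by Pgk1 (0.11 at 0 h and -0.05 at 4 h), Gapdh (0.05 at 0 h, -0.08 at 1 h and 0.14 at 4 h), Pkm (0.06, -0.05 and 0.16) and Vegfa (0.09 at 1 h and -0.20 at 4 h).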

How the results depend on the processing

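The values rest on 1 library per condition, and 40.6% to 62.5% of barcodes were kept in Con and Veh against 12.1% to 18.5% in DHA, so differences between cultures cannot be told apart from differences between conditions. Over the 16 counts of members past 1.5-fold, the limit of 10000 UMIs, the removal of shared barcodes, the mean over cells, the mean level of 5 CPM and no limit on the share of cells left every count within 1.5 times its value, and no alternative turned the direction of a single member past the limit. With a 2-fold limit the higher members numbered 3 (serum reduction, from 8), 1 (LPS 1 h in Veh, from 2), 1 (LPS 4 h in Veh, from 4), 1 (LPS 1 h in DHA, from 2) and 0, 1 and 0 with DHA at 0, 1 and 4 h (from 3, 4 and 4), and the lower members 0 (LPS 1 h in Veh, LPS 1 h in DHA and DHA at 4 h, each from 1) and 2 (LPS 4 h in DHA, from 6). Of all genes, 278 of 8252 were higher at 2-fold with serum reduction. In Veh the counts were 174 of 8089 (LPS 1 h) and 468 of 8385 (LPS 4 h), and in DHA 196 of 8474 (LPS 1 h). Lower at 2-fold were 91 of 8089 (LPS 1 h in Veh) and 110 of 8474 (LPS 1 h in DHA). With DHA at 4 h the count was 67 of 7672, and with LPS 4 h in DHA 1453 of 8477. With TMM scaling, and likewise with ratios centred on the median gene, 2 members were higher with DHA at 4 h (from 4), 0 lower with LPS 1 h in DHA (from 1) and 2 lower with LPS 4 h in DHA (from 6). Under TMM scaling the counts over all genes were 96 of 7672, 283 of 8474 and 1779 of 8477, and with centring 111, 271 and 1803. With all barcodes, LPS 1 h in Veh had 1 higher (from 2) and 0 lower (from 1), and DHA had 1 lower at 1 h (from 0) and 0 lower at 4 h (from 1), the latter also with a mitochondrial limit of 10%. Of all genes with all barcodes, 304 of 6854 were higher and 239 lower with LPS 1 h in Veh. With DHA, 639 of 5948 were lower at 1 h and 318 of 6008 at 4 h, the latter 191 of 7738 with the limit of 10%. In low-proliferation cells LPS at 1 h had 1 higher member in Veh and 1 in DHA (from 2 each) and 0 lower in DHA (from 1). Of all genes in these cells, 345 of 7702 were higher in Veh. In DHA, 415 of 8204 were higher and 453 lower. The median log2 ratio over the glycolysis members changed sign with all barcodes for DHA at 0, 1 and 4 h (to -0.14, -0.15 and -0.07), and for LPS 4 h with TMM scaling (to 0.15 in Veh and 0.08 in DHA), as did that over the hypoxia members (to 0.13 and 0.02). With all barcodes the DHA median of all genes was -0.25, -0.31 and -0.18 at 0, 1 and 4 h. Centring was chosen after seeing the data. The cause of these differences was not tested. No paired analysis was possible because each condition has 1 library.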
